A study of Mus musculus with 123 samples.

Results

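Of 29 single αMHC-GFP+ cells taken from mouse hearts at embryonic stage E12.5, 6 cells carried Sln, the gene of the small sarcoplasmic reticulum protein sarcolipin, at 10 counts or more and are called Sln-positive here. A further 21 cells had no count of Sln and are called Sln-negative. The remaining 2 cells, with 9 counts and 1 count, entered neither group. The files hold 123 cells in all, of which these 29 are the E12.5 cells. The groups were chosen by the Sln count of each cell, so its values describe the split and support nothing.

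The study asked how cardiomyocytes (CMs) expand clonally in the developing mouse heart, and single CMs were sequenced at E9.5, E12.5 and P1 to describe their heterogeneity. All cells of both groups came from E12.5 hearts of the aMHC-GFP strain and had no other treatment or allele named in the labels. In this strain the promoter of Myh6, the α-myosin heavy chain gene, drives GFP, by which the cells were sorted, and the promoter is active in atrial as well as ventricular CMs. Cells were captured on Fluidigm C1 chips and amplified with SMART-Seq V4 chemistry. The labels name no animal, litter, pool, chamber or chip, so the E12.5 cells are 1 sample, cells are not replicates of a condition, and the ratios below have no replicate check and no p-value. Errors given with means are the SD over cells.

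In the mouse heart, atrial and ventricular CMs express different members of the same protein families. Atrial CMs use the regulatory myosin light chain encoded by Myl7 and the transcription factor encoded by Nr2f2 (COUP-TFII), which is known to be needed for atrial identity, whereas ventricular CMs use the light chain encoded by Myl2. Sarcolipin inhibits the calcium pump SERCA and is known in rodents as an atrial transcript, and phospholamban, from Pln, plays the corresponding role mainly in the ventricle. Nppa, the gene of atrial natriuretic peptide, is expressed in the embryo both in the atria and in the trabeculae of the ventricles.

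Each cell is called by its number within the E12.5 label, in accession order, and CPM are counts per 1000000 of a cell's total. The E12.5 titles carry 3 prefixes, which serve here as naming sets, and the labels do not say what they stand for. Set C supplied 3 Sln-positive and 16 Sln-negative cells, set N523 supplied 3 and 4, and the single cell of set E12-5b was Sln-negative. Depth followed the naming set: set C cells of the 2 groups had 162654 to 738496 counts, and set N523 cells had 2953992 to 7711355. Over both sets, Sln-positive cells had 3741 to 6113 genes at 1 count or more and Sln-negative cells had 2713 to 6327. In cells 22 and 26, both Sln-positive and of set N523, Xist and the Y-linked genes were each at 10 counts or more (Xist at 69 and 48 counts, the Y-linked genes at 662 and 21), which held for no other E12.5 cell. Whether more than 1 cell contributed to these 2 libraries was not tested, and no doublet caller was run. Without them, the log2 ratio between the groups was 1.40 for the summed atrial list (1.18 with them), 1.99 for Myl7, 1.83 for Nr2f2, 1.47 for Tbx5, -3.52 for Myl2 and -0.99 for the summed glycolysis list (-0.90 with them). Of the genes named below as called in the atrial, ventricular, calcium and glycolysis lists, Jph2, Gapdh and Pgk1 were no longer called. Myl3 of the ventricular list (log2 ratio -5.75) was then called lower and Stard10 of the atrial list (4.15) higher, neither of them called with all cells.

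Sln spanned a wide range within the Sln-positive group. Cell 25 held 19945 counts (4286 CPM), cell 9 held 881 (1486 CPM) and cell 22 held 1799 (609 CPM). The other 3 were low, with 181 counts in cell 26 (39.2 CPM), 11 in cell 7 (26.4 CPM, 95% Poisson interval 13.2 to 47.3) and 10 in cell 16 (27.2 CPM, 13.0 to 49.96). These last cells lay just inside the threshold. Just outside it lay cell 8, whose 9 counts came from the smallest library of all (148258 counts) and amounted to 60.7 CPM (27.8 to 115), and cell 24, whose 1 count came from a library of 6728675. A threshold in counts therefore set aside a cell of set C with more Sln per total than 3 of the members. Among the Sln-negative cells, the shallowest, cell 17, had 162654 counts, so that its 0 allows up to 18.4 CPM (3 counts), and the deepest, cell 29, allows up to 0.389 CPM. Such limits cover counting error only, because reads were not collapsed to molecules.

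**Figure D1:**
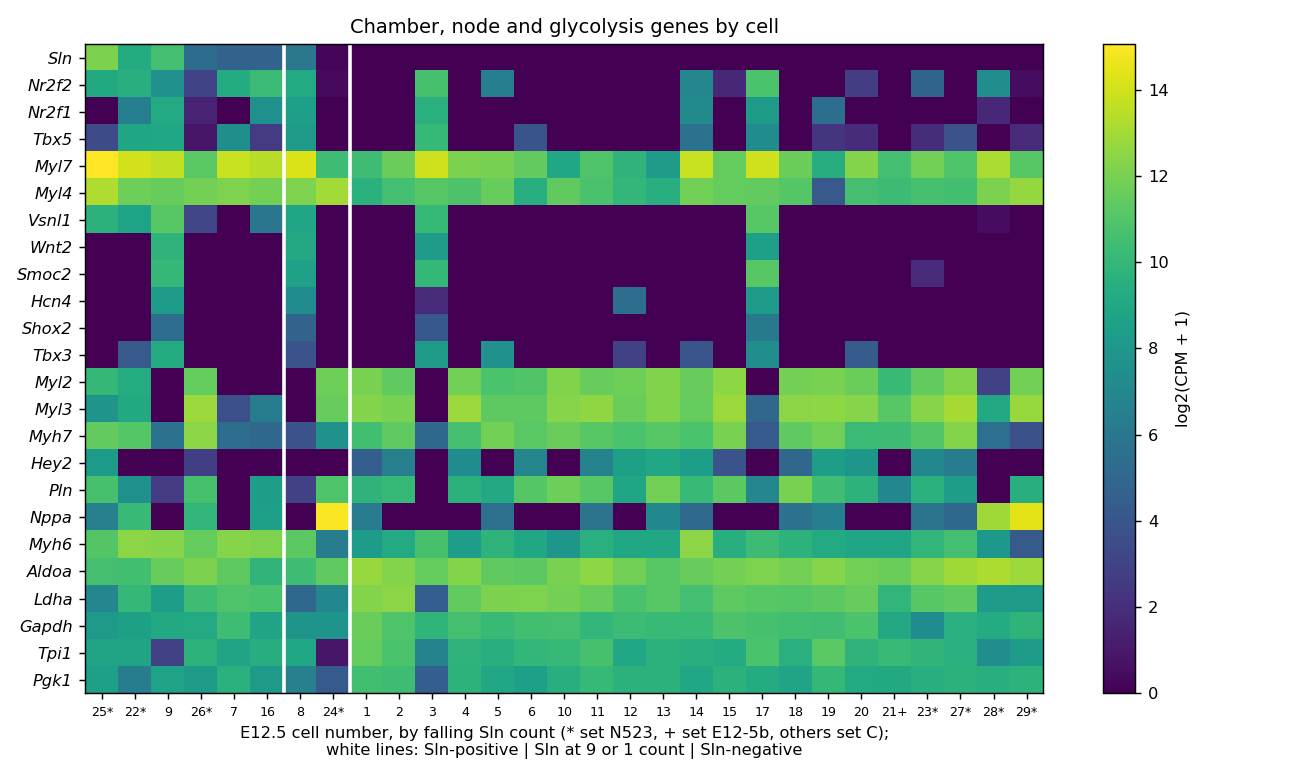
Each column is 1 of the 29 E12.5 cells, ordered by falling Sln count, and each row is 1 gene; colour gives log2(CPM + 1), and white lines separate the Sln-positive cells, the 2 cells at 9 and 1 counts, and the Sln-negative cells. Nr2f2, Tbx5 and Vsnl1 are also high in Sln-negative cells 3 and 17, which like cells 9, 7, 16 and 8 have no count of Myl2.

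Sln lies on chromosome 9 (chr9:53850251-53853849 in GRCm38.p6), Nr2f2 on chromosome 7 (chr7:70351946-70366746), Myl2 on chromosome 5 (chr5:122092724-122113473) and Myl7 on chromosome 11 (chr11:5896637-5898782). The 250 bases before the annotated start of the light chain genes Myl7 and Myl2 are shown because these genes differed between the groups in opposite directions. They come from RefSeq on GRCm38.p6, at chr11:5898783-5899032 on the minus strand for Myl7 and at chr5:122092474-122092723 on the plus strand for Myl2, and both are written 5′ to 3′ along the gene. Capitals mark the matches of the 6 motifs searched on both strands.

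Myl7: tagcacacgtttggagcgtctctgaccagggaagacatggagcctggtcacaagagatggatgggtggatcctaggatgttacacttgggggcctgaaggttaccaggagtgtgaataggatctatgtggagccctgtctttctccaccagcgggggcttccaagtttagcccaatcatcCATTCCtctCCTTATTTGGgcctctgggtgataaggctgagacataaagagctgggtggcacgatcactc
Myl2: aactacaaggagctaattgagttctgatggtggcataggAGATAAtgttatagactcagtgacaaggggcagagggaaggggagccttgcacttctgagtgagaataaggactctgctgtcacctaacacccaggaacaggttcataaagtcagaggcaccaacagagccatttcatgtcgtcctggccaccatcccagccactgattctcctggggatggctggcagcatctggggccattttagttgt

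In the Myl7 window, CATTCC (a letter match for TEAD factors) stood 70 to 65 bases before the start and a CArG box, the motif of SRF, stood 61 to 52 bases before it. The Myl2 window held AGATAA, a letter match for GATA factors, 211 to 206 bases before the start. Other letter forms of the GATA motif were not searched and are unmarked, such as the tgataa in the Myl7 window. The windows shown therefore cannot be compared for GATA matches. Neither of the windows shown held AGGTCA, the core letters bound by nuclear receptors such as COUP-TFII, or AGGTGT, the core letters of T-box factors, or the MEF2 site. RefSeq lists a further Myl2 start at 122093189, whose window (chr5:122092939-122093188, not shown) held AGGTCA 141 to 136 bases before that start and none of the other 5 motifs. Of 32851 promoter windows of the same length, 12.6% held CATTCC, 1.47% the CArG box, 9.99% AGATAA, 14.0% AGGTCA, 11.8% AGGTGT and 2.92% the MEF2 site. A match is a description of the letters and not of binding.

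All 7374 genes with a mean of 10 CPM or more over the 29 cells and found in 3 or more of them were compared between the groups. A gene was called higher in Sln-positive cells when its mean CPM was at least 2-fold higher and the Sln-positive cell was the higher one in at least 80% of the 126 pairs of 1 Sln-positive and 1 Sln-negative cell, and called lower by the same rule in the other direction. By this rule 80 genes were higher (1.08% of the genes tested) and 46 were lower (0.624%). The 2-fold ratio alone was reached by 21.2% and 35.5% of the genes, and over all genes tested the median log2 ratio was -0.30. Only Sln, which chose the groups, did not overlap between them among the genes that were higher (0.0136%), and no gene that was lower was free of overlap (0%). Of the 80 genes called higher, 37 were called whichever of the 27 cells was left out, and of the 46 called lower, 24. Each call therefore describes these 27 cells and has no replicate check.

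**Figure D2:**
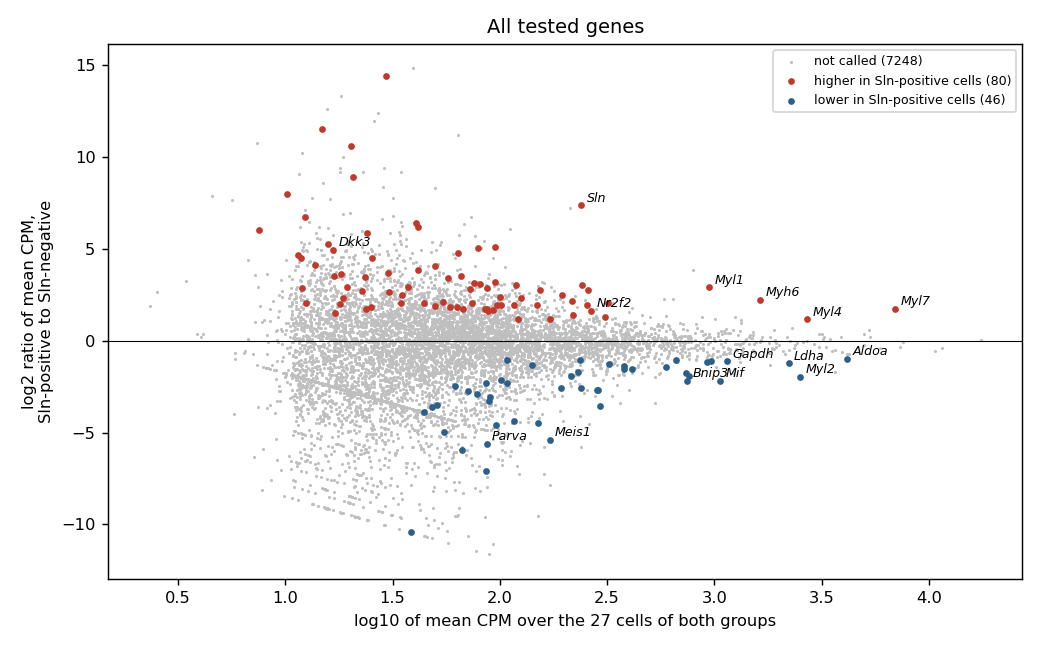
Each point is 1 of the 7374 genes tested, placed by the log10 of its mean CPM over the 27 cells (horizontal) and its log2 ratio of mean CPM between 6 Sln-positive and 21 Sln-negative cells (vertical), with a mean of 0 replaced by 3 counts per cell; coloured points are the 80 genes called higher and the 46 called lower. Myl7, Myl4, Myh6 and Myl1 stand out among the abundant genes above the line, and Myl2, Ldha, Aldoa and Mif among those below it.

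Of the atrial list without Sln, 6 of 16 members tested were called higher in Sln-positive cells and none was called lower, against 1.08% and 0.624% of all genes. They were Myl7, Myl4, Nr2f2, Tbx5, Vsnl1 and Dkk3. Dkk3, with means of 67.6 and 2.19 CPM, passed the filter on low values only through the Sln-positive cells and so had to differ, and without it 5 of 15 were called. Over all genes, 5130 of the 7374 had 10 CPM or more in each group, of which 53 were called higher (1.03%) and 34 lower (0.663%). Myl7, Nr2f2 and Tbx5 were called whichever of the 27 cells was left out. The log2 ratio of Myl4 was 0.82 without cell 25 and that of Vsnl1 0.73 without cell 9, which ended both calls (Vsnl1 was at 3.48 without Sln-negative cell 17 and Tbx5 at 3.99 without Sln-negative cell 3), and Dkk3 fell short of 80% of pairs without cell 7, 16 or 25. The median log2 ratio over the 16 members was 1.23, and the summed CPM of the list was 24505 ± 12778 (SD, n = 6 cells) in Sln-positive and 10790.1 ± 9215 (SD, n = 21 cells) in Sln-negative cells, a log2 ratio of 1.18. The sums ranged from 8887 to 47892 CPM and from 1265 to 32521 CPM, so that the groups overlapped. Their log2 ratio was 1.21 within set C and 0.67 within set N523. Within set N523 alone Myl4 and Tbx5 did not meet the rule, and within set C alone Vsnl1 did not. Myl7, Myl4 and Nppa supplied 89.4% of the counts of the list.

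Myl7 was found in every cell. It stood at 2364 CPM in the lowest, 13697 in the median and 34330.2 in the highest Sln-positive cell, against 318, 2929.8 and 16052 CPM in Sln-negative cells, a log2 ratio of means of 1.74. Cell 26 was the low one, and the other 5 Sln-positive cells were all above 11121 CPM or at it (cell 16). In the Sln-negative group only cells 3, 14 and 17 lay above 11121 CPM. Myl4, which encodes the atrial essential light chain, ranged from 2997 to 9787 CPM (median 3875) in Sln-positive and from 17.6 to 6609 CPM (median 1709) in Sln-negative cells, and the Sln-positive cell was higher in 90.5% of pairs. Myl1, a light chain gene of embryonic and fast skeletal muscle that is not in the list, was higher as well. It ranged from 152 to 11730.2 CPM (median 1242) against 0 to 2365 CPM (median 100.4). Its log2 ratio of 2.90 was 1.54 without cell 25. The call of Myl1 ended without cell 16 and also without cell 25, because the share of pairs then fell short of the rule.

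Nr2f2 had counts in all 6 Sln-positive cells and in 9 of the 21 Sln-negative cells. The Sln-positive cells held 1214 CPM (cell 16), 741 (cell 22), 612 (cell 7), 572 (cell 25), 199 (cell 9) and 7.58 (cell 26), with a mean of 558 ± 424 CPM. In Sln-negative cells the median was 0 and the mean 183 ± 509.9 CPM, carried mostly by cells 17 and 3 at 1752 and 1667 CPM. The highest Nr2f2 of all E12.5 cells was thus in cells with no Sln count. The log2 ratio was 1.61, and it ran from 1.22 to 2.42 when any 1 cell was left out. After each cell was thinned to 100000 counts, Nr2f2 was found in 5 of 6 and 7 of 21 cells. Its paralog Nr2f1 was found in 4 and 5 cells, with a mean of 147 against 59.7 CPM, and was not called; its log2 ratio of 1.31 was -0.078 without cell 9 and 2.61 without Sln-negative cell 3.

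Tbx5, a T-box factor of the atria and left ventricle, was found in 6 of 6 and 9 of 21 cells, at a median of 96.1 against 0 CPM and up to 503 against 1077 CPM. Cells 9 and 22 were the high ones among Sln-positive cells, and the highest of all was Sln-negative cell 3. Vsnl1, which encodes a neuronal calcium sensor and is known from atrial and sinus node CMs, was found in 5 of 6 and 3 of 21 cells. Cell 9 held 2299.7 CPM, cell 25 819 and cell 22 419, and of the Sln-negative cells, cells 17 and 3 held 2232 and 1074 CPM. Dkk3, which encodes a secreted protein of the Dickkopf family, was found in 5 of 6 cells up to 279.8 CPM (cell 16) and in 6 of 21 cells up to 16.8 CPM, so its level in Sln-negative cells rests on few counts. Mybphl reached 1064 CPM in Sln-negative cell 17 and 216 CPM in Sln-positive cell 25, and its means of 54.1 and 56.8 CPM gave a log2 ratio of -0.07, which was -1.40 without cell 25 and 3.07 without cell 17.

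**Figure D3:**
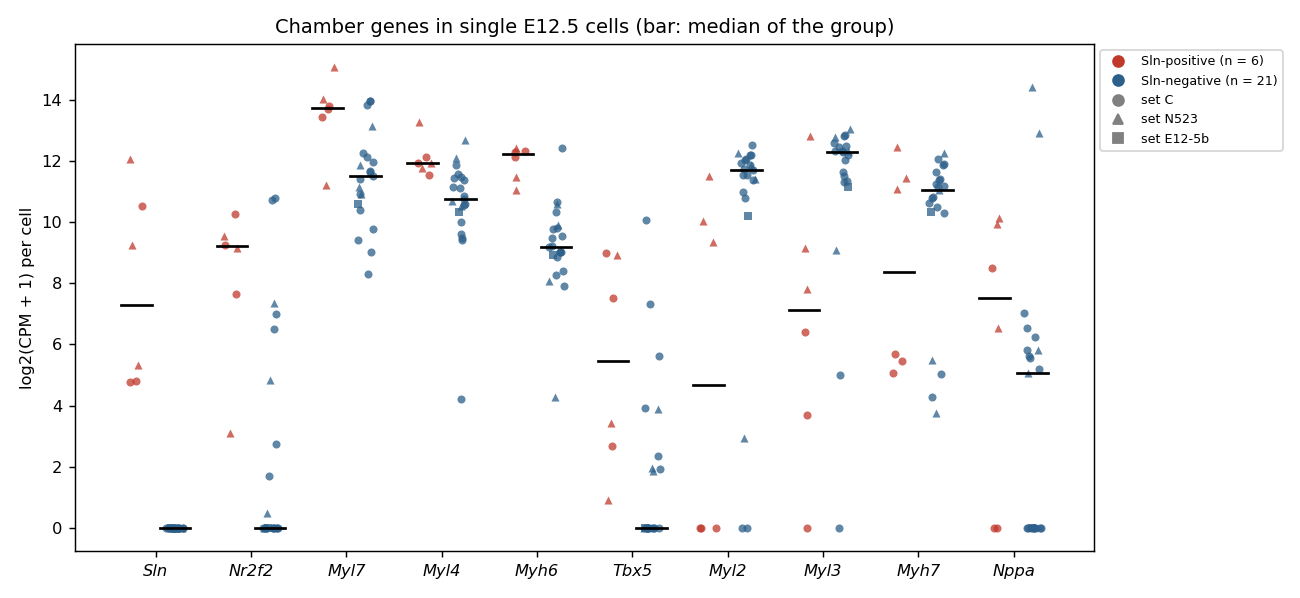
Points give log2(CPM + 1) of 10 chamber genes in each of the 6 Sln-positive (red) and 21 Sln-negative (blue) E12.5 cells, with shape for the naming set and a bar at the group's median. Myl7, Myl4 and Myh6 are shifted upwards in Sln-positive cells, the Sln-positive cells of set C lie at 0 for Myl2, and the highest Nppa points belong to Sln-negative cells of set N523.

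Nppa, also given as a marker of the Sln-positive cells, had no one direction. Its mean was 427 ± 504 CPM in Sln-positive and 1442 ± 4997 CPM in Sln-negative cells, a log2 ratio of -1.76, and it was not called in either direction. The Sln-positive cells held 1119 CPM (cell 22), 985 (cell 26), 364 (cell 16) and 92.6 (cell 25), and cells 9 and 7 had no count. Among Sln-negative cells 11 of 21 had counts, with a median of 32.2 CPM, and the mean was set by cells 29 and 28 of set N523 at 21985 and 7725 CPM. Cell 24, with 1 count of Sln, had the most Nppa of all at 32004 CPM. These 3 cells were also the only ones of set N523 with fewer than 4000 genes, and without them the log2 ratio was 3.84. From the medians over all cells of each group it was 2.83, and without cell 29 alone the ratio of means was 0.04. Within set C the ratio of means was 2.01, where cell 16 was the only one of 3 Sln-positive cells with a count, and within set N523 it was -3.35.

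Of the ventricular genes, Myl2 was lower in Sln-positive cells. In the ventricular list, 1 of 9 members tested was called lower and none was called higher, against 0.624% and 1.08% of all genes; the median log2 ratio over the 9 was -1.05. Its summed CPM was 5044 ± 6608 in Sln-positive and 11232 ± 5762 in Sln-negative cells, a log2 ratio of -1.16. This value was -3.80 within set C and -0.19 within set N523. Without cell 26 it was -2.17, and without cells 22 and 26, which carried both Xist and Y-linked counts, -2.39. Without these 2 cells Myl3 was called lower as well, at a log2 ratio of -5.75.

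Myl2 had no count in Sln-positive cells 9, 7 and 16, all of set C. Cell 22 held 645 CPM, cell 25 1042 and cell 26 2921, all of set N523. In Sln-negative cells it ranged from 0 to 5846 CPM with a median of 3317, and the log2 ratio of means was -1.96 (-3.15 without cell 26). Within set C the log2 ratio is a bound, -8.85 or lower, from replacing 0 by 3 counts per cell, whereas within set N523 it was -0.89 and the gene was not called. Other members of the list did not all follow it. Myl3, the ventricular essential light chain, was at 0, 12.0 and 84.2 CPM in cells 9, 7 and 16 and at 7136 CPM in cell 26, and Myh7, the β-myosin heavy chain, was at 50.6, 43.2 and 32.6 CPM in the first 3 and at 5587 CPM in the last. Cell 25 held more Myl2 than cell 22 but less Myl3 (224 against 565 CPM), and Sln-negative cell 29 held 3767 CPM of Myl2 with 12.4 CPM of Myh7. Hey2, a transcriptional repressor expressed in the compact ventricular wall, was found in 2 of 6 and 14 of 21 cells, at 297 CPM in cell 25 and 5.84 CPM in cell 26. Irx4, a ventricular factor, stood highest of all E12.5 cells in Sln-positive cell 26, at 234 CPM.

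**Figure D4:**
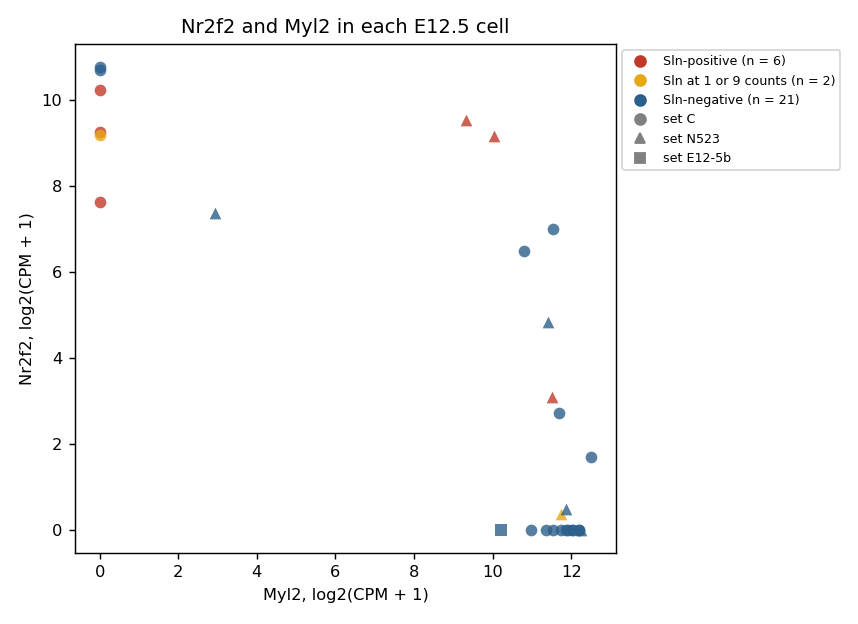
Each point is 1 E12.5 cell, placed by Myl2 (horizontal) and Nr2f2 (vertical), both as log2(CPM + 1), with colour for the Sln group and shape for the naming set. The 6 cells without Myl2 are 3 Sln-positive, 1 cell at 9 counts of Sln and 2 Sln-negative cells, while the 3 Sln-positive cells of set N523 lie among cells with Myl2.

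The Sln split and the Myl2 split were therefore not the same. Of the 29 cells, 6 had no count of Myl2: Sln-positive cells 9, 7 and 16, cell 8, and Sln-negative cells 17 and 3. All 6 were of set C and all had Nr2f2, from 199 CPM in cell 9 to 1752 CPM in cell 17. Myl7 in these cells ran from 11121 to 19810.1 CPM. Sln-negative cells 17 and 3 thus shared with the Sln-positive cells of set C the absence of Myl2 counts and the presence of Nr2f2, Tbx5 and Cav1, and their libraries of 162654 and 376205 counts allow 18.4 and 7.97 CPM of Sln. The Sln levels of cells 7 and 16 lay above both limits, but the lower ends of their intervals lay below the limit of cell 17.

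Some cells of both groups held Myl2 and Myl7 together at other proportions. Sln-negative cell 28, of set N523, had only 6.62 CPM of Myl2 with 9096 CPM of Myl7 and 164 CPM of Nr2f2. Sln-negative cell 14, of set C, had 2989 CPM of Myl2 with 14363 CPM of Myl7, 127 CPM of Nr2f2 and 5535 CPM of Myh6. Sln-positive cell 26 had 2921 CPM of Myl2 with 2364 CPM of Myl7, 7136 CPM of Myl3 and 7.58 CPM of Nr2f2. Of the markers given for Sln-positive cells as atrial, Myl7 and Nr2f2 were higher in the group by the rule above and Myl2 was lower, whereas Nppa was not called.

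Genes of the sinus node and atrioventricular canal lay across the split. Smoc2, Wnt2 and Shox2 were found together in cells 9 (Sln-positive), 8 (9 counts of Sln), 17 and 3 (Sln-negative), all of set C. Hcn4, the pacemaker channel gene, stood at 290.2, 155, 301 and 2.66 CPM in these 4 cells, and Shox2, a factor of the sinus node, at 40.5, 27.0, 67.6 and 15.9 CPM. Wnt2 and Shox2 were found in no other E12.5 cell, whereas Hcn4 was also at 42.5 CPM in Sln-negative cell 12 and Smoc2 at 2.67 CPM in Sln-negative cell 23. Tbx3, a T-box repressor of the conduction system, was found in these 4 as well, at up to 618 CPM in cell 9, down to 13.5 CPM in cell 8, and also in 5 others, up to 197 CPM in cell 5. A single count was worth 2.66 CPM in cell 3 and 6.75 CPM in cell 8. Hcn4 in cell 3 was thus 1 count, and Tbx3 and Shox2 in cell 8 rest on few counts. None of the 7 members of the node and canal list that were tested was called, against 1.08% and 0.624% of all genes called higher and lower. The log2 ratio of its summed CPM was 0.12 and rests on cell 9, since it was -2.53 without that cell. Within the Sln-positive group cell 9 alone held Smoc2, Wnt2, Hcn4 and Shox2.

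The genes called higher held several outside the chamber lists. Myh6, whose promoter drives the GFP used for capture, was found in every cell and was called higher. It ranged from 2119 to 5512 CPM (median 4756) in Sln-positive and from 18.3 to 5535 CPM (median 583) in Sln-negative cells, with means of 4183 ± 1371 and 902 ± 1137 CPM, and the Sln-positive cell was higher in 95.2% of pairs. The only Sln-negative cell above the median of the Sln-positive cells was cell 14. In the sarcomere list it was the only one of 18 members called, against 1.08% of all genes called higher, and the list's summed CPM gave a log2 ratio of 0.21 (-0.13 within set C).

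Nptn, which encodes the adhesion protein neuroplastin, stood at 58.0 to 1237 CPM (median 805) in Sln-positive and 0 to 489 CPM (median 37.6) in Sln-negative cells. Cell 25 was the low one, and the other 5 Sln-positive cells were all above the highest Sln-negative cell. Cav1, the caveolin gene, was found in all 6 Sln-positive cells and in 4 of 21 Sln-negative cells, or 5 and 3 after thinning to 100000 counts. The Sln-negative cells with the most Cav1 were again cells 3 and 17, at 2642 and 2078 CPM, next to 2026 CPM in cell 9, and without cell 9 the log2 ratio went from 1.28 to 0.25, which ended the call, while without cell 3 it was 2.33. Timp3, a matrix metalloproteinase inhibitor, had medians of 941 and 4.48 CPM, and Rab3b, a vesicle GTPase, had 555 and 0 CPM. Both genes were low in cell 26, at 13.4 and 21.2 CPM.

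Among calcium handling genes, 2 of the 16 tested apart from Sln were called higher and none was called lower, against 1.08% and 0.624% of all genes. They were Casq1, the skeletal calsequestrin, at a median of 270.2 against 19.8 CPM, and Jph2, junctophilin, at 20.1 against 0 CPM. The log2 ratio of Casq1 went from 1.40 to 0.80 without cell 25, and its call also ended without cell 9 or 16 and without any of 10 Sln-negative cells. Jph2 rests on cell 22 at 264 CPM: without it the log2 ratio went from 1.81 to -0.088. Pln, the ventricular counterpart of Sln, ranged from 0 to 1661 CPM (median 261) in Sln-positive and from 0 to 4217 CPM (median 846) in Sln-negative cells and was not called. It followed the naming set, with log2 ratios of -3.84 within set C and 1.31 within set N523.

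The called genes with the largest ratios, by the rule for naming, were found in few Sln-negative cells. Cant1, Hdac7, Zbtb10, Pcdh17 and Maml2 all passed the filter on low values only through the Sln-positive cells and so had to differ. Cant1 was found in 4 of 6 and 1 of 21 cells, Hdac7, a class IIa histone deacetylase, in 5 and 1, Zbtb10 in 4 and 1, and Pcdh17, a protocadherin, in 5 and 2. Leaving out any 1 of the 4 Sln-positive cells with Cant1, or with Zbtb10, ended that gene's call. The means of the 4 genes in Sln-positive cells were 133, 66.8, 92.7 and 53.8 CPM. Maml2, a coactivator of Notch signalling, was found in 5 of 6 cells at up to 605 CPM and in 4 of 21 cells at up to 166 CPM. The deeper libraries of set N523 make up 3 of 6 Sln-positive and 4 of 21 Sln-negative cells, with 4796 to 6113 genes found in the former and 2713 to 6327 in the latter, and the part of depth in these calls was not tested. After thinning to 100000 counts, 42 genes were called higher and 47 lower, so that the higher genes went from 63.5% to 47.2% of the calls.

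A group of glycolytic enzymes was lower in Sln-positive cells. Of 12 members tested, 5 were called lower, Aldoa, Tpi1, Gapdh, Pgk1 and Ldha, and none was called higher, against 0.624% of all genes called lower. None of the 5 calls held for every cell left out: the fewest, 2, remained without cell 25 or without Sln-negative cell 1, and the log2 ratios of the 5 without 1 Sln-positive cell ran from -1.52 (Gapdh) to -0.82 (Pgk1). Set C alone gave 3 such calls among the 12, and set N523 alone gave 2, against 3.43% and 4.2% of all genes called lower by the rule within these sets. The summed CPM of the list was 4159 to 10971 (median 5353) in Sln-positive and 4540.1 to 23174 (median 11699) in Sln-negative cells, and the Sln-positive cell was higher in 8.73% of pairs. Cells 26 and 7 were the high ones among Sln-positive cells. The lowest Sln-negative cell was cell 3, at 4540.1 CPM, whereas cell 17 was at 11454 CPM. The log2 ratio was -0.90, and it was -0.91 within set C and -0.92 within set N523.

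Aldoa, fructose-bisphosphate aldolase, ranged from 921 to 4398 CPM (median 2074) against 2262 to 9556 CPM (median 4255). For Ldha, lactate dehydrogenase A, the range was 126 to 1933 CPM (median 1176) against 21.3 to 5491 CPM (median 2422). The groups overlapped for both enzymes. The log2 ratios of the other 3 were -1.12 for Gapdh, -1.03 for Pgk1 and -1.14 for Tpi1, the last at 0.10 within set N523. These enzymes have many processed pseudogenes, and how reads shared with them were counted is not given in the sources used here. The list was moved among the results given with their alternatives after its value had been seen.

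Genes called lower outside the lists had other roles. Bnip3, a mitophagy receptor, had medians of 214 and 726 CPM, and Higd1a, a respiratory chain assembly factor, of 41.5 and 282 CPM. Mif, the macrophage migration inhibitory factor, ranged from 15.2 to 607 CPM (median 200.3) in Sln-positive and from 159 to 2691 CPM (median 1256) in Sln-negative cells, and the Sln-positive cell was higher in 6.35% of pairs. Sdhd, a subunit of succinate dehydrogenase, had means of 258 and 871 CPM. The next 3 genes passed the filter on low values only through the Sln-negative cells and so had to differ. Parva, which encodes the focal adhesion protein α-parvin, was found in 4 of 6 and 19 of 21 cells, and never above 8.44 CPM in a Sln-positive cell. Meis1, a homeobox factor, had counts in 1 Sln-positive cell (cell 22, 30.8 CPM) and in 15 of 21 Sln-negative cells (median 149 CPM). Naa10, an acetyltransferase subunit, was found in 0 of 6 Sln-positive cells, which allows up to 50% of such cells with a count, and in 16 of 21 Sln-negative cells. Its mean of 57.0 CPM over all 21 makes it at least 15.04-fold lower in Sln-positive cells when 0 is replaced by 3 counts per cell averaged over the cells.

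In several lists 0 or 1 member was called, which at 1.08% and 0.624% of all genes says little about lists of this size. None of 22 respiration genes was called, and their summed CPM had means of 20371 ± 4717 and 20389 ± 6611 CPM, with 14468 to 27565 CPM in Sln-positive and 8618 to 34502 CPM in Sln-negative cells. None of 12 fatty acid oxidation genes was called either, with means of 3874 and 3869.6 CPM. Of 11 cardiac transcription factors that both chambers share, such as Nkx2-5 and Gata4, none was called, at a log2 ratio of 0.24. In the trabecular list, 0 of 5 was called, and the sums had means of 4365 and 4369.8 CPM, led by Ankrd1, which ranged from 16.3 to 8539.9 CPM in Sln-positive cells. The retinoic acid list had 1 of 5 members called, Nr2f2, and 0 of 9 ion channel genes was called.

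Cell cycle genes varied widely within both groups. The mitosis list had 0 of 18 members called and summed to 0 to 4564 CPM (median 666) in Sln-positive and 0 to 13344 CPM (median 1151) in Sln-negative cells. Cells 16 and 22 were the high Sln-positive cells, at 4564 and 3504 CPM, and cell 9 had none. For the 12 DNA replication genes, none called, the highest Sln-positive cell was cell 25 at 4129 CPM, followed by cell 16 at 1882 CPM, and the other 4 were below 359 CPM or at it (cell 9). The log2 ratios of the sums were -1.08 and -0.74, without cell 16 the former was -1.77, and without cell 25 the latter was -1.72.

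The 2 larger naming sets were also compared on their own. Within set C (3 against 16 cells), 3.61% of the 7374 genes met the rule as higher and 3.43% as lower, and within set N523 (3 against 4 cells), 12.4% and 4.2%. The rule is met more easily with fewer cells, in either direction. Why more genes were higher than lower within set N523 was not tested. Of the 80 genes called higher over all cells, 49 met it in set C, 59 in set N523 and 30 in both. Of the 46 called lower, 30 met it in set C, 20 in set N523 and 11 in both. These cells are the same cells that made the calls, so the counts describe where the calls came from. Myh6, Myl7, Nr2f2, Nptn, Cav1, Timp3, Rab3b and Dkk3 were among the 30, and Mif, Sdhd, Myadm and Parva among the 11.

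Endothelial and erythroid markers were at or near 0 in both groups. Endothelial genes summed to at most 1.35 CPM in any of the 27 cells, and erythroid genes to at most 0.216 CPM. Of the endothelial genes, 7 of 9 were at 0 in these cells and in the cells of neither group. Cdh5 had a count only in a Sln-negative cell, and Kdr only in cell 8 (13.5 CPM), which is in neither group. Macrophage genes reached 229 CPM in 1 Sln-negative cell and 0.339 CPM in Sln-positive cells, and glial genes 49.7 and 0 CPM. Fibroblast genes reached 297 CPM in Sln-positive cell 9 and 534 CPM in a Sln-negative cell, and epicardial genes 415 and 595 CPM. Smooth muscle genes, which embryonic CMs also express, gave a log2 ratio of -0.01. Genes of the dissociation stress response summed to a median of 2259 CPM in Sln-positive and 196 CPM in Sln-negative cells, with none of 8 called and log2 ratios of 1.79 within set C and -0.27 within set N523. Its part in the differences between the groups was not tested.

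The same split was made in the P1 cells, which the choice of the E12.5 cells did not use. All 41 P1 cells with 2000 or more genes had titles that begin with C. Of them, 7 had Sln at 10 counts or more and 30 had none. In the E9.5 cells Sln had a count in 0 of 42, which allows up to 7.14% of such cells with a count (3 of 42, for counting error only). The P1 cells of these 2 groups had 69522 to 327360 counts. Of 6613 genes tested at P1, 0.786% were called higher and 0.469% lower in Sln-positive cells. Apart from Sln, 63 of the 79 genes called higher at E12.5 were tested at P1 and 7 of them were called higher there (11.1% of the 63, and 13.7% of the 51 genes called at P1): Myl7, Myl4, Myl1, Nr2f2, Tbx5, Dkk3 and Cav1. Of the 46 genes called lower, 45 were tested and 2 were called lower at P1 (4.44% of the 45, and 6.45% of the 31 genes called), Myl2 and Higd1a. By direction alone, 34 of the 63 had a ratio above 0 at P1 and 23 below 0, and 19 of the 45 had a ratio above 0 and 26 below 0, against 39.4% above and 47.4% below over all genes tested there.

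Of the light chain genes, Myl7, Myl4 and Myl1 had larger ratios at P1 than at E12.5. Myl7 had means of 13692 and 334 CPM in Sln-positive and Sln-negative P1 cells (log2 ratio 5.36, against 1.74 at E12.5), and Myl4 had 2710.3 and 38.5 CPM (6.14 against 1.16). The log2 ratio of Myl1 was 6.31 against 2.90, that of Myl2 -1.86 against -1.96 and that of Myl3 -1.73 against -1.69, where within set C at E12.5 the latter were -8.85 or lower for Myl2 and -7.03 for Myl3, and within set N523 -0.89 and -0.99. Over all E12.5 cells Myl3 was at -4.60 without cell 26. Nr2f2 was found in 6 of 7 and 0 of 30 cells at P1 (the latter allows up to 10% of such cells with a count), and Tbx5 in 6 and 3. Nppa was called higher at P1, at 47849 against 666 CPM. At E12.5 the log2 ratio of Nppa within set C was 2.01 (means of 121 and 30.0 CPM, the former from cell 16 alone). The negative ratio over all E12.5 cells rests on cells 28 and 29. The P1 titles also begin with C, but the labels do not say whether this letter means the same at both time points. The means of Myh6 at P1 were 10563 and 11434 CPM and it was not called. The glycolysis list gave a log2 ratio of -0.39 at P1, and Ldha stood at 1043 against 928 CPM. The differences between the 2 time points were not tested, since each was treated as 1 sample.

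**Figure D5:**
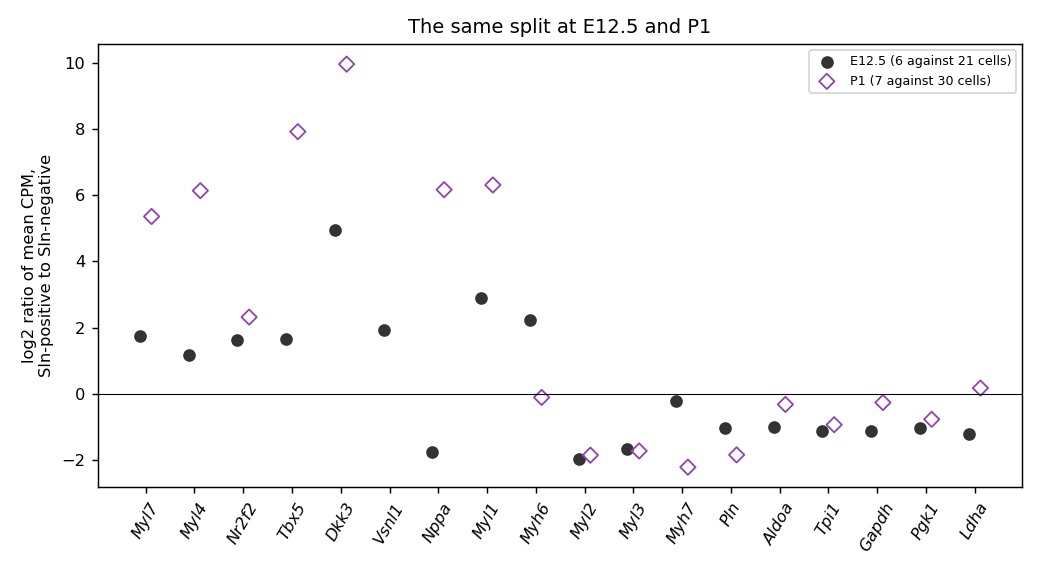
Points give the log2 ratio of mean CPM between Sln-positive and Sln-negative cells for 18 genes at E12.5 (filled, 6 against 21 cells) and P1 (open diamonds, 7 against 30 cells), with ratios against a mean of 0 drawn at their lower bound. Genes are drawn whether or not they passed the filter on low values, and a point is missing only where counts were too low for a ratio. Myl7, Myl4, Nr2f2, Tbx5, Dkk3 and Myl1 lie above 0 and Myl2 below 0 at both time points, Nppa lies below 0 at E12.5 and above it at P1, and Myh6 lies above 0 at E12.5 and near it at P1.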

How the data were processed

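Single αMHC-GFP+ cells of the mouse heart were captured and amplified on Fluidigm C1 chips and sequenced. Reads were aligned by the authors with OLego and assigned to genes with featureCounts, and the deposited raw read counts cover 123 cells and 23337 symbols. The deposited TPM (transcripts per 1000000) were computed by the authors from these counts and are used here only as an alternative. The labels name the builds GRCm38 and mm10. The authors removed cells with low read numbers from their analysis.

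Of the 29 E12.5 cells, 6 had Sln at 10 counts or more and 21 had none, as the rule for the groups states, and members and gene lists were chosen with earlier results of these data known. Counts were divided by each cell's total to give CPM. For every gene with a mean of 10 CPM or more and found in 3 or more cells, the means over the cells of each group were compared together with the share of the 126 pairs in which the Sln-positive cell was higher; a tie was split evenly. A mean of 0 was replaced by 3 counts per cell averaged over the group, which gives a bound. The label describes 1 sample per time point, so no test, SE or p-value was computed. Total counts ranged from 148258 to 7711355 per E12.5 cell. A single count was worth 6.75 CPM in the shallowest of them and 0.130 CPM in the deepest, and Poisson intervals are at a level of 95%. Where a gene had a count in 0 cells, the limit given is 3 cells of the number looked at; it covers cells with a count, not cells that express the gene. Genes named are members of the lists where they decide a value and, for each direction, those among the 12 with the largest ratio at a mean of 50 CPM or more, in 50% or more of the cells of the higher group and in the same direction in set C. Some genes called in both naming sets, and genes of single cells that stand apart, were named after their values were seen.

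Alternatives were pooled CPM, medians, TPM, thinning to 100000 counts, TMM factors (edgeR 4.0.16), a pseudocount, other filters, ratios, shares of pairs and Sln thresholds, single naming sets, leaving out titles with the ending "no", which the labels do not explain, and leaving out each Sln-positive cell in turn and, added later, each Sln-negative cell. The scripts (Python 3.11.15, pandas 2.3.3) were tested on simulated data. Promoter sequences are from RefSeq on GRCm38.p6. Of the symbols, 25 read as dates and name no gene. Values of 2 genes are not reported here.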

Additional observations from a re-analysis of the deposited data

Results flagged for a closer look

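For 16 of 79 genes and lists looked at, all of them genes, 1 of the 6 Sln-positive cells lay far from the rest on the scale of log2(CPM + 1), judged by its gap to the nearest cell as a share of the whole range of the group. Chance alone would pick about 1 in 20 groups of continuous values, a rate that does not apply to the 7 genes found in 1 of the 6 cells only, whose gap is 1 by construction. Cell 9 was the only Sln-positive cell with counts of Smoc2, Hcn4, Shox2 and Wnt2 (a gap of 1 for each) and of Prpf38b (also 1), and it was the lowest for Tpi1 (0.862) and Mif (0.676). Cell 25 was the highest for Myl4 (0.657) and Hey2 (0.662) and the lowest for Nptn (0.745). Cell 26 was the lowest for Nr2f2 (0.636). Cell 16 was the lowest for Ankrd1 (0.629) and the highest for Gcsh (0.710), cell 22 was the only one with Meis1 (1), and cell 7 was the only one with Abhd4 (1) and the only one without Myadm (0.816). With few counts behind many of these values, and with cells of different depth in the group, why these cells stood apart was not tested.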

How the results depend on the processing

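The summed lists kept the direction of their log2 ratio in every setting tried for the atrial (0.60 to 1.60), ventricular (-3.80 to -0.07), glycolysis (-1.13 to -0.79), mitosis (-1.77 to -0.79) and DNA replication genes (-2.16 to -0.28), whereas those of the sarcomere, respiration, trabecular and node and canal genes crossed 0. The ventricular ratio was -3.80 within set C, and the trabecular ratio was 3.14 without its 3 genes with the most counts; the cause was not tested.

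The numbers of genes called depended on the rule and on the cells. Against 80 higher genes, there were 42 after thinning, 43 at a mean of 50 CPM, 1564 by the 2-fold ratio alone, 368 at 70% and 7 at 90% of pairs, 24 with Sln at 1 count or more and 206 at 100 counts or more, 266 in set C, 895 in the sets other than C, 235 without titles ending in "no", 93 to 141 when each Sln-positive cell was left out and 82 to 97 when each Sln-negative cell was. Against 46 lower genes, there were 27 at 4-fold, 2619 by the 2-fold ratio alone, 283 at 70% and 3 at 90% of pairs, 117 with Sln at 100 counts or more, 253 in set C, 380 in the sets other than C, 140 without titles ending in "no", 63 to 93 when each Sln-positive cell was left out and 44 to 65 when each Sln-negative cell was. With fewer cells the share of pairs is reached more easily, so fewer Sln-positive cells give more calls, but 37 of the 80 and 24 of the 46 genes were called whichever cell was left out. The higher genes were 63.5% of the calls as reported, 47.2% after thinning, 50.6% at a mean of 50 CPM, 37.4% by the ratio alone, 42.9% with Sln at 1 count or more, 51.3% in set C, 50% without cell 26, 52.8% without cells 22 and 26 and 50.8% without the set N523 cells under 4000 genes. They were more in other settings, at 74.7% in set N523 alone, 70.2% in the sets other than C and 70% at 90% of pairs.

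Chosen after seeing the data, as was leaving out each Sln-negative cell, leaving out the 2 cells with both Xist and Y-linked counts gave 140 higher and 125 lower genes, set N523 alone 914 and 310, the Sln-negative group without its cells lacking Myl2 gave 70 lower genes, and keeping only genes at 10 CPM or more in each group gave 53 higher and 34 lower genes. Of the named genes, Jph2 ranged from -0.088 (without cell 22) to 2.07 when each Sln-positive cell was left out and up to 2.69 without Sln-negative cell 15, and Tpi1 changed sign to 0.10 within set N523. The deposited TPM gave 82 and 47 calls and TMM factors 80 and 45. No paired analysis was possible because the cell numbers follow accession order and the comparison has no test. Depth limits the low genes: in set C, 0 counts allow up to 18.4 CPM in the shallowest Sln-negative cell.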

Other observations

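Ribosomal protein genes, which are in none of the lists above, had log2 ratios mostly below 0, as had all genes tested. Of 85 with Rpl or Rps symbols, 1 was called higher and 2 were called lower in Sln-positive cells, against 1.08% and 0.624% of all genes. The log2 ratio was below 0 for 61 of the 85 and for 4202 of the 7374 genes tested, and the median log2 ratio of the 85 was -0.33 against -0.30 for all genes. Ribosomal protein genes have many processed pseudogenes, as the glycolytic enzymes do.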
